A study of Mus musculus with 6 samples.

Results

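Alveolar type 1 (AT1) cells were followed through 10 genes in lungs that lack Notch signaling in the airway epithelium. The 10 genes, Ager, Gprc5a, Aqp5, Pdpn, Cav1, Emp2, Rtkn2, Akap5, Clic5 and Hopx, were chosen by symbol as markers of AT1 cells and were compared between RbpjkCNULL and control lungs as a distal compartment outside the airways in which Clara cells (CCs) form. All 10 had a value on the arrays, which measured 21225 genes, and the choice used no threshold on these values.

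AT1 cells are the thin, wide cells that cover most of the gas exchange surface of the lung, where they share a basement membrane with the capillaries. They arise from progenitors at the distal tips of the branching epithelium, flatten late in gestation, and are told from the cuboidal surfactant-producing alveolar type 2 (AT2) cells by membrane receptors, water channels, caveolae and an extended actin cortex. Notch signaling through the DNA-binding protein Rbpj is known in the airways for the choice between secretory and ciliated cells.

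Whole lungs were collected at E18.5, with 3 RbpjkCNULL and 3 control lungs and 1 array per lung, from C57BL/6 mice. RbpjkCNULL lungs were Shhcre/+; RbpjkFlox/Flox, which the labels write as Rbpjk -/-. Control lungs were labelled both as Wildtype and as Shh cre/+, so that it is not certain whether they carried the cre. The cre follows the Shh promoter, which is active in the early lung epithelium from which airway and alveolar cells descend. How far Rbpj was deleted in the alveolar epithelium was not measured here. Nothing in the labels ties a lung to a litter, so it is not known whether the lungs are independent. The p-values set the difference between groups against the spread between these lungs.

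The arrays had medians of 6.43 to 6.50 on the log2 scale and correlations across genes of 0.988 to 0.997. Rbpj, the targeted gene, had log2 values of 6.26, 6.17 and 6.18 in RbpjkCNULL lungs, against 6.45, 6.50 and 6.74 in control lungs (log2 fold change -0.36, limma adjusted p = 0.210), and the groups did not overlap. In whole lung the undeleted cells contribute to this value. Xist, which is transcribed in females, had log2 values of 4.28, 4.13 and 4.21 in RbpjkCNULL lungs, against 10.5, 10.7 and 4.91 in control lungs, so control replicates 1 and 2 were the only female lungs. A fit with the Xist level as a covariate therefore sets the RbpjkCNULL lungs mainly against control replicate 3, wherever it is given below. RbpjkCNULL replicate 1 and control replicates 1 and 3 had higher lower quartiles (5.03, 5.11 and 5.08) than the other 3 arrays (4.87 to 4.89). Values of both kinds that touch the AT1 genes are given with them. In whole lungs, fewer cells of a type and less RNA per cell cannot be told apart.

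None of the 10 AT1 genes passed the test for a difference in RbpjkCNULL lungs. Genes are said below to have risen or fallen only where they passed the adjusted test. With limma, which fits a linear model per gene and borrows the spread from all genes, 0 of 10 passed at an adjusted p under 0.05 (Benjamini-Hochberg over all genes), and 0 passed at an unadjusted p under 0.05 by limma or by the methods' t-test. Of all genes, 1.27% passed the adjusted test (246 higher and 24 lower), and 8.53% had an unadjusted p under 0.05. The groups did not overlap for 0 of 10 AT1 genes, against 14.2% of all genes. With so few genes called in the whole lung, a count of 0 among 10 is close to this background, and the intervals of the single genes say more than the count.

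Those intervals were narrow for most of the genes. The log2 fold changes, RbpjkCNULL minus control, ran from -0.18 to 0.23 with a median of 0.01, beside a median of -0.05 over all genes. In absolute size their median was 0.04, against 0.08 for all genes. Neither comparison was matched for expression level, and signs moved with scaling. Of all genes 68.1% were negative, and 51.8% with cyclic loess scaling. Of the 10 genes 4 were negative, and 6 with that scaling. Leaving aside Rtkn2, the 95% intervals of the single genes reached no further than 1.33-fold lower and 1.20-fold higher in RbpjkCNULL lungs. They come from the fit without a covariate for sex, and each holds for its gene alone. Rtkn2 was bounded only between 1.20-fold lower and 1.66-fold higher. The standard errors were below the median of all genes for 7 of the 10. At their median standard error (0.08), a log2 change of 0.45, or 1.37-fold, would have reached the adjusted threshold. A gene that misses the threshold is not shown to be unchanged, and precision is limited by the 6 arrays. Sex was not balanced between the groups either. With the Xist level as a covariate, the intervals without Rtkn2 reached log2 changes of -0.67 (Pdpn) and 0.35 (Aqp5).

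**Figure D1:**
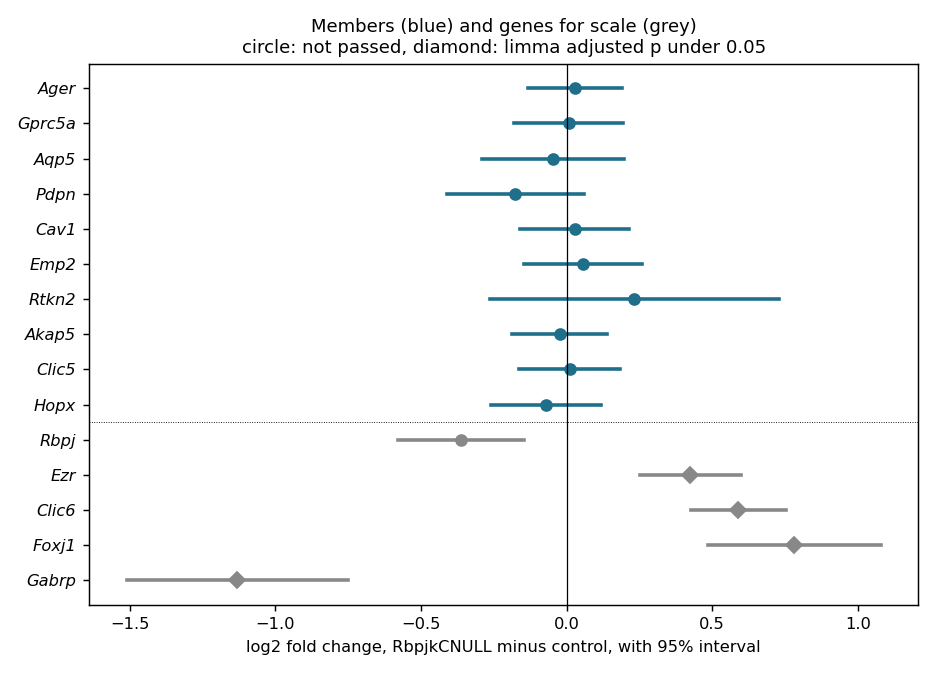
Log2 fold change, RbpjkCNULL minus control (horizontal axis), with its 95% interval from limma, for the 10 AT1 genes (blue) and, for scale, for Rbpj, Ezr, Clic6, Foxj1 and Gabrp (grey), where diamonds mark an adjusted p under 0.05. All 10 blue intervals cross 0, and that of Rtkn2, from -0.26 to 0.73, is the widest of the 10.

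Over the 10 genes and 6 lungs, log2 values lay between 7.97 and 11.34. For none of the 10 genes was the mean under the median of all gene means. Brightness differs between probes, so the level of a gene is set only against its own level in other lungs.

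Ager, the receptor for advanced glycation end products, which sits on the basal membrane of AT1 cells, had log2 values of 11.34, 11.31 and 11.27 in RbpjkCNULL lungs, against 11.33, 11.20 and 11.30 in control lungs. The 6 lungs spanned 0.14 on the log2 scale and the groups overlapped. Its log2 fold change was 0.03 (standard error 0.07, 95% interval -0.13 to 0.19, limma adjusted p = 0.923). Gprc5a, an orphan G protein-coupled receptor induced by retinoic acid, had log2 values of 10.17, 10.32 and 10.35 in RbpjkCNULL lungs, against 10.28, 10.20 and 10.34 in control lungs. RbpjkCNULL replicates 1 and 3 were the lowest and the highest of all 6 lungs, with the control lungs between them. The log2 fold change was 0.01 (standard error 0.08, interval -0.18 to 0.19), and it turned negative with quantile scaling, cyclic loess scaling and the Xist level as a covariate.

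Among the channel and surface proteins, Aqp5, the apical water channel of AT1 cells, had log2 values of 8.23, 8.04 and 7.98 in RbpjkCNULL lungs, against 8.27, 7.97 and 8.15 in control lungs. The groups covered nearly the same range. The log2 fold change was -0.05 (standard error 0.10, interval -0.29 to 0.20), and 0.08 when the lower quartiles of the arrays entered as a covariate. Pdpn, a mucin-type membrane glycoprotein that binds ezrin-family proteins and is also made by mesothelium, lymphatic endothelium and basal cells, had log2 values of 8.72, 8.63 and 8.58 in RbpjkCNULL lungs, against 8.94, 8.61 and 8.90 in control lungs. Control replicates 1 and 3 were above all RbpjkCNULL lungs, and control replicate 2 was below RbpjkCNULL replicates 1 and 2. This was the lowest log2 fold change of the 10, at -0.18 (standard error 0.10, interval -0.41 to 0.06), with an unadjusted p of 0.123 and a limma adjusted p of 0.689. Without control replicate 2 it was -0.28 and passed at an unadjusted p under 0.05, but its adjusted p was 0.251, the lowest of any of the 10 genes under any setting tried. With the lower quartile as a covariate it was -0.05.

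Within each group Pdpn and Aqp5 had the same order of lungs. Both were highest in replicate 1 among RbpjkCNULL lungs and in replicate 1 among control lungs, and both of these arrays, like that of control replicate 3, had the higher lower quartiles. Mesothelial genes also differed from lung to lung. Their median deviation from the 6-lung mean was 0.13, 0.13 and -0.30 in RbpjkCNULL replicates 1 to 3, against 0.13, -0.18 and 0.09 in control replicates 1 to 3. Of the 6 genes (Msln, Upk3b, Wt1 and others), 3 were lowest in RbpjkCNULL replicate 3, where Pdpn was also lowest, and 2 in control replicate 2, the lowest control lung for Pdpn. The other lungs did not follow this order. RbpjkCNULL replicates 1 and 2 had mesothelial medians as high as control replicate 1 and above control replicate 3, but lower Pdpn than both. The part of the mesothelium and of the lower quartile in the Pdpn values was not tested beyond the covariate above.

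Cav1 coats the caveolae that crowd AT1 cells and endothelium alike. It had log2 values of 10.79, 10.76 and 10.65 in RbpjkCNULL lungs, against 10.76, 10.59 and 10.76 in control lungs. Control replicate 2 stood below the other 5 lungs. The log2 fold change was 0.03 (standard error 0.08, interval -0.16 to 0.22), and it turned negative with array weights and with the Xist level as a covariate. Emp2, a membrane protein of the epithelial membrane protein family that is abundant in AT1 cells, had log2 values of 11.25, 11.08 and 11.10 in RbpjkCNULL lungs, against 11.12, 10.96 and 11.17 in control lungs. The highest lung was RbpjkCNULL replicate 1 and the lowest control replicate 2, so that the groups overlapped, although RbpjkCNULL replicates 2 and 3 were below control replicates 1 and 3. Its log2 fold change was 0.06 (standard error 0.09, interval -0.15 to 0.26), and -0.05 with the Xist level as a covariate.

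**Figure D2:**
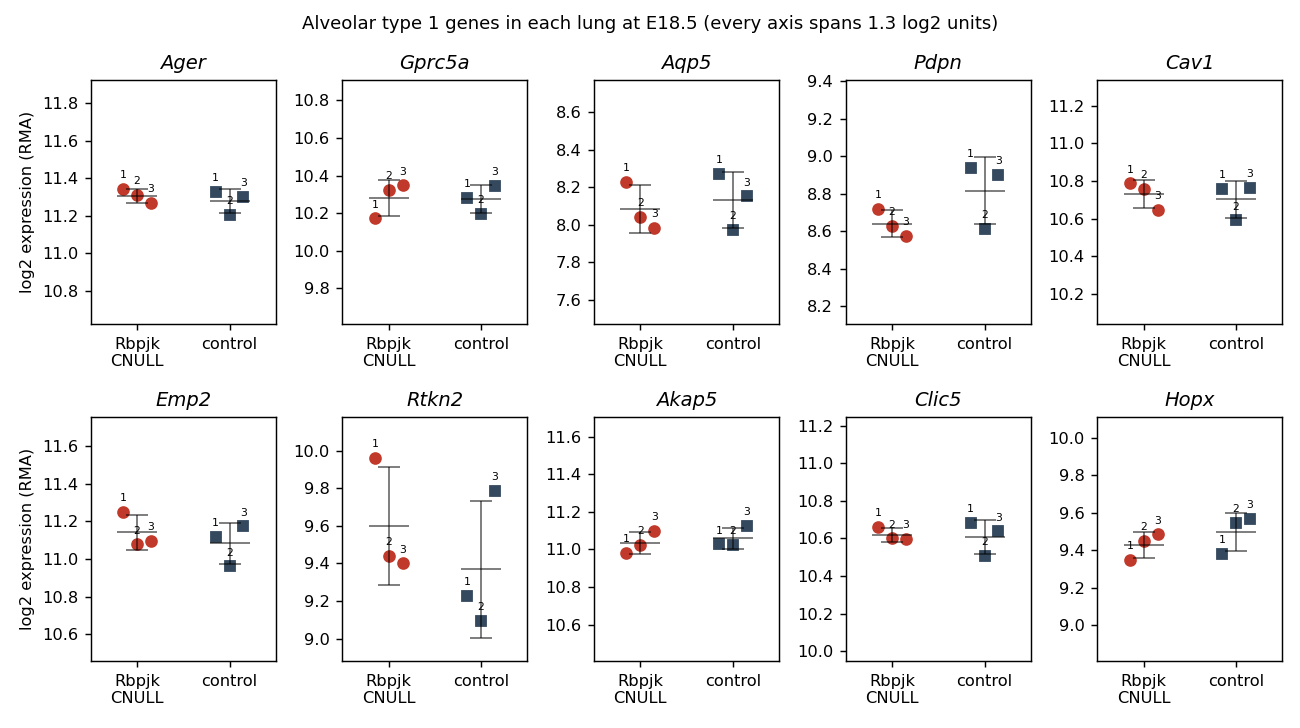
Log2 expression (RMA) of each AT1 gene in every lung, RbpjkCNULL (red circles) left of control (blue squares), with the replicate number beside each point and a bar for the mean ± SD (n = 3 lungs per group); each axis spans 1.3 log2 units. The groups overlap in all 10 panels, and Rtkn2 has the widest scatter within both groups.

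The cytoskeletal and scaffold proteins held the most variable member. Rtkn2, of the rhotekin family of scaffold proteins, had log2 values of 9.96, 9.44 and 9.40 in RbpjkCNULL lungs, against 9.22, 9.09 and 9.78 in control lungs. RbpjkCNULL replicate 1 and control replicate 3 stood high in their groups, and the 6 lungs spanned 0.87 on the log2 scale. The means were 9.60 ± 0.31 in RbpjkCNULL lungs and 9.37 ± 0.37 in control lungs (SD, n = 3 each). The log2 fold change was 0.23 (standard error 0.21, interval -0.26 to 0.73, limma adjusted p = 0.791). It turned with the choice of lungs and covariates, to 0.44 without control replicate 3, 0.47 with the lower quartile as a covariate and -0.25 with the Xist level as a covariate. Its standard error was higher than that of 97.7% of all genes, and only a log2 change of 1.20 would have reached the adjusted threshold.

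The remaining scaffold proteins varied little. Akap5, which anchors protein kinase A and calcineurin at the membrane, had log2 values of 10.98, 11.02 and 11.10 in RbpjkCNULL lungs, against 11.03, 11.02 and 11.12 in control lungs. The values of the groups interleaved, with a log2 fold change of -0.02 (standard error 0.07, interval -0.19 to 0.14). Clic5, of the intracellular chloride channel family, which associates with ezrin and cortical actin, had log2 values of 10.66, 10.60 and 10.60 in RbpjkCNULL lungs, against 10.68, 10.51 and 10.64 in control lungs. All 3 RbpjkCNULL lungs lay inside the range of the control lungs. The log2 fold change was 0.01 (standard error 0.07, interval -0.16 to 0.18), with a sign that turned under array weights, cyclic loess scaling and the Xist level as a covariate.

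Hopx, the transcriptional member of the list, is an atypical homeodomain protein that does not bind DNA and marks AT1 cells as they form. It had log2 values of 9.35, 9.45 and 9.48 in RbpjkCNULL lungs, against 9.38, 9.55 and 9.57 in control lungs. In both groups replicate 1 was the lowest, and the groups overlapped. The log2 fold change was -0.07 (standard error 0.08, interval -0.26 to 0.12, limma adjusted p = 0.829). It and Pdpn were the only members whose sign did not turn under any of the 20 settings tried.

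The start sites of the AT1 genes were searched for the letters TGGGAA, the core of the site that Rbpj binds, on both strands. RefSeq (GRCm38.p6) gives promoter windows, from 250 bases before to 50 after the start, for 8 of the 10 genes and 10 windows in all, since Hopx and Cav1 have more than 1. The letters were in 3 of the 10 windows, against 25.6% of 32851 promoters of the same length. No other motif was searched. The 3 windows are shown, since they belong to members with the letters of the deleted factor at the start site, with the match in capitals. The windows are those of Ager at chr17:34597600-34597899, Cav1 at chr6:17306085-17306384 and Clic5 at chr17:44188322-44188621, all on the plus strand.
Ager: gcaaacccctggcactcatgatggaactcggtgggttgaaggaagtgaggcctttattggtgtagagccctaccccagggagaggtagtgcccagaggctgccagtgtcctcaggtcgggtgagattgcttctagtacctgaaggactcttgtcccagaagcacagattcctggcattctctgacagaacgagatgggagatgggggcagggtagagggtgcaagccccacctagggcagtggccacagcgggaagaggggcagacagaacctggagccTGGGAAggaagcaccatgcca
Cav1: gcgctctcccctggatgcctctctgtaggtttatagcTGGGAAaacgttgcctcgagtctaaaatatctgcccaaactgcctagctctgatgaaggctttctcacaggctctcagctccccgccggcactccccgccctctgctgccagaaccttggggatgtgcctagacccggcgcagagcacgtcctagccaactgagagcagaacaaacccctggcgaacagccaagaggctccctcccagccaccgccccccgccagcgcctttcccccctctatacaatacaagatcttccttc
Clic5: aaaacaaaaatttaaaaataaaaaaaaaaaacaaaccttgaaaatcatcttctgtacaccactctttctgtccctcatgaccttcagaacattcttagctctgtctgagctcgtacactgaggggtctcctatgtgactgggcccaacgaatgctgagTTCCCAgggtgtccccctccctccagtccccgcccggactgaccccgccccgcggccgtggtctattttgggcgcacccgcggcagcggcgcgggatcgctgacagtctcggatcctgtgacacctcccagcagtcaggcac
The match began 30 bases past the start in Ager, 213 bases before it (position -213) in Cav1 and at position -92 in Clic5, where it reads TTCCCA on the printed strand. The log2 fold changes of these genes were 0.03, 0.03 and 0.01, and those of the 5 members with a window but no match ran from -0.18 (Pdpn) to 0.06 (Emp2). A match of these letters is a description of the window and no record of binding.

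Differences between lungs of the same genotype were shared by several members. Control replicate 2 was the lowest of the 6 lungs for 6 of the 10 AT1 genes (Ager, Aqp5, Cav1, Rtkn2, Emp2 and Clic5). RbpjkCNULL replicate 1 was the highest for 4 of them (Ager, Cav1, Rtkn2 and Emp2) and the lowest for Hopx, Akap5 and Gprc5a. The median deviation of the 10 genes from the 6-lung mean was 0.05, -0.02 and -0.02 in RbpjkCNULL replicates 1 to 3, against 0.02, -0.11 and 0.06 in control replicates 1 to 3. Genes of AT2 cells, the other alveolar lineage, were also low in control replicate 2. Of 15 AT2 genes, 11 were highest in RbpjkCNULL replicate 1 and 11 were lowest in control replicate 2. Their median deviation was 0.25, -0.07 and 0.00 in RbpjkCNULL replicates 1 to 3, against -0.04, -0.21 and 0.07 in control replicates 1 to 3.

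**Figure D3:**
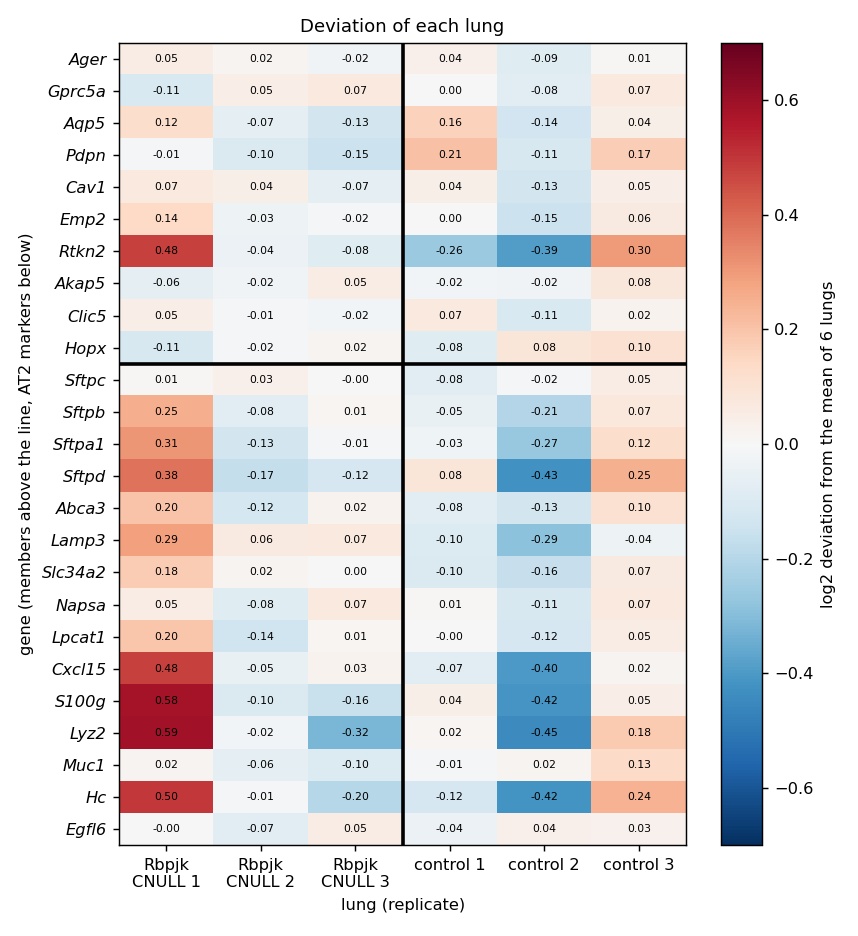
Log2 deviation of each lung from the mean of the 6 lungs (colour and printed value) for the 10 AT1 genes (above the line) and 15 AT2 genes (below it), with RbpjkCNULL lungs left of control lungs. Control replicate 2 is mostly blue in both blocks and RbpjkCNULL replicate 1 mostly red among the AT2 genes, while Hopx, Gprc5a, Akap5 and Pdpn are below the mean in RbpjkCNULL replicate 1.

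Of 16 other genes of the AT1 surface and cytoskeleton, 0 rose and 0 fell, and their median log2 fold change was 0.01. Cldn18, the claudin of alveolar tight junctions, had a log2 fold change of 0.00 (interval -0.16 to 0.16), Scnn1g, a subunit of the epithelial sodium channel, of -0.05, and Ahnak, a large membrane scaffold, of 0.01. At an unadjusted p under 0.05, 3 of the 16 were higher, namely Cyp2b10, Lmo7 and Scnn1a, which were named after their values were seen. Over all genes the share in either direction was 8.53%. Cyp2b10, a cytochrome P450, had log2 values of 6.81, 6.25 and 6.18 in RbpjkCNULL lungs, against 5.74, 5.58 and 5.83 in control lungs. The groups did not overlap, with a log2 fold change of 0.70 (standard error 0.17) that missed the test over all genes (limma adjusted p = 0.167). Lmo7 and Scnn1a had log2 fold changes of 0.17 and 0.20. The groups did not overlap for 4 of the 16, these 3 higher and Krt7 lower (-0.11), against 14.2% of all genes.

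Signals and matrix that AT1 cells send to their neighbours were measured by 14 of 16 genes, of which 0 rose and 0 fell (0 also at an unadjusted p under 0.05), with a median log2 fold change of 0.01. Vegfa, the growth factor by which the epithelium calls in capillaries, had log2 values of 10.39, 10.42 and 10.45 in RbpjkCNULL lungs, against 10.38, 10.37 and 10.47 in control lungs. The groups overlapped, with a log2 fold change of 0.01 (interval -0.15 to 0.17). Sema3a, a guidance molecule, had a log2 fold change of 0.00. Igfbp2, which binds insulin-like growth factors and marks mature AT1 cells, was at 0.33 (standard error 0.15, limma adjusted p = 0.611).

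Of 10 transcriptional regulators of AT1 cells, 0 rose and 0 fell, 8 had a negative log2 fold change, as did 68.1% of all genes, and the median was -0.09, beside -0.05 for all genes. Nkx2-1, the homeodomain factor of the lung epithelium, had a log2 fold change of -0.07 (standard error 0.09). The Hippo effectors Yap1 and Wwtr1 had 0.01 and -0.09. Tead3, a DNA-binding partner of both, was named after its values were seen, as the only regulator at an unadjusted p under 0.05 (-0.20, standard error 0.07, limma adjusted p = 0.496).

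Relatives and partners of the AT1 genes included 2 that rose. Of 17 relatives from the aquaporin, caveolin, epithelial membrane protein, chloride channel, Gprc5 and rhotekin families, 1 rose and 0 fell (median log2 fold change -0.03). Of all genes, 1.27% were called. The groups did not overlap for 7 of the 17 (3 higher and 4 lower), against 14.2% of all genes. The relative that rose was Clic6, of the same family as Clic5, with log2 values of 8.47, 8.62 and 8.52 in RbpjkCNULL lungs, against 7.92, 7.95 and 7.98 in control lungs. Every RbpjkCNULL lung was above every control lung, with a log2 fold change of 0.59 (standard error 0.07, limma adjusted p = 0.00719), while Clic5 itself had 0.01. Without any of the lungs in turn, Clic6 had an adjusted p between 0.0178 and 0.0517 and passed in 5 of 6 fits, and with the Xist level as a covariate its adjusted p was 0.292 at a log2 fold change of 0.55. Cav2, the partner of Cav1 in caveolae, and Aqp4, a basolateral water channel, were named after their values were seen, with log2 fold changes of 0.25 and -0.32 (adjusted p = 0.472 and 0.537).

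Of 11 binding partners of Pdpn, Clic5, Akap5 and Rtkn2, 1 rose and 0 fell (median log2 fold change 0.01), beside 1.27% of all genes called. Ezr, or ezrin, which ties membrane proteins such as Pdpn and Clic5 to actin, had log2 values of 9.64, 9.50 and 9.54 in RbpjkCNULL lungs, against 9.20, 9.06 and 9.14 in control lungs. The groups did not overlap, with a log2 fold change of 0.43 (standard error 0.07, limma adjusted p = 0.0470). Ezr passed in 0 of the 6 fits that leave out a lung (adjusted p 0.0942 to 0.199), and its log2 fold change was 0.42 with the Xist level as a covariate (adjusted p = 0.579). Rdx and Msn, the other ezrin-family proteins, had log2 fold changes of 0.04 and 0.01. Genes of ciliated cells were higher in the same lungs, with median deviations from the 6-lung mean of 0.44, 0.57 and 0.45 in RbpjkCNULL replicates 1 to 3, against -0.56, -0.47 and -0.41 in control replicates 1 to 3. Their part in the values of Clic6 and Ezr was not tested. The caveola coat (6 genes) and the ligands of the Ager receptor (8 of 9 measured) had 0 genes that rose or fell, with median log2 fold changes of -0.04 and -0.02.

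Cell types that lie beside AT1 cells or share their genes were examined next. Of the 15 AT2 genes 0 rose and 0 fell, and the median log2 fold change was 0.11. It was positive for 13 of the 15, while 68.1% of all genes had a negative one. Sftpc, the surfactant protein that defines AT2 cells, had log2 values of 12.89, 12.91 and 12.88 in RbpjkCNULL lungs, against 12.81, 12.86 and 12.93 in control lungs. Its log2 fold change was 0.03 (interval -0.13 to 0.18). Lamp3, named after its values were seen, was the only AT2 gene at an unadjusted p under 0.05 by limma. Its log2 fold change was 0.28 (limma adjusted p = 0.460), and its groups did not overlap. For the AT2 genes the sign of the median turned with the Xist level as a covariate (-0.05). Progenitors of the distal tips (7 genes, Sox9 and Id2 among them), endothelium (14), mesothelium (6) and lymphatic endothelium (4 of 5 measured) had 0 genes called and medians of 0.03, 0.03, -0.01 and 0.02. The genes of basal cells (6), which also make Pdpn, had 0 called and a median of -0.10. Their log2 values ran from 4.47 to 6.30, near those of 15 genes of tissues outside the lung (2.46 to 6.11, median log2 fold change -0.14). The basal median was therefore not read as a change in basal cells. Genes that all lung epithelium uses (11 genes, such as Epcam and Cdh1) had 0 called and a median of 0.01. At an unadjusted p under 0.05 by limma, 1 was higher (Krt8, 0.30) and 1 lower (Elf3, -0.25), both named after their values were seen. The groups did not overlap for 3 of these 11 genes, against 14.2% of all genes.

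The airway lists, which like all lists were chosen with earlier results of these data known, gave a scale of what these arrays registered. Of 10 ciliated cell genes 9 rose, and the median of their log2 fold changes was 1.03. The count was 6 to 7 with a lung left out and 0 with the Xist level as a covariate. Foxj1, the factor that drives multiciliated cells, had log2 values of 7.98, 7.89 and 7.95 in RbpjkCNULL lungs, against 6.86, 7.26 and 7.35 in control lungs. Its log2 fold change was 0.78 (limma adjusted p = 0.0333), it passed in 2 of 6 fits that leave out a lung, and it was 0.57 with the Xist level as a covariate (adjusted p = 0.626). All 11 CC genes fell, with a median of -1.53 and a smallest fall of -1.13 (Gabrp), but the study chose those genes on these arrays and their direction is not independent evidence. Gabrp passed in 1 of 6 fits that leave out a lung (adjusted p up to 0.102), and 0 of the 11 passed with the Xist level as a covariate. In the fit with no covariate, the 95% intervals of the AT1 genes lay between -0.41 and 0.26 without Rtkn2 and reached 0.73 with it.

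**Figure D4:**
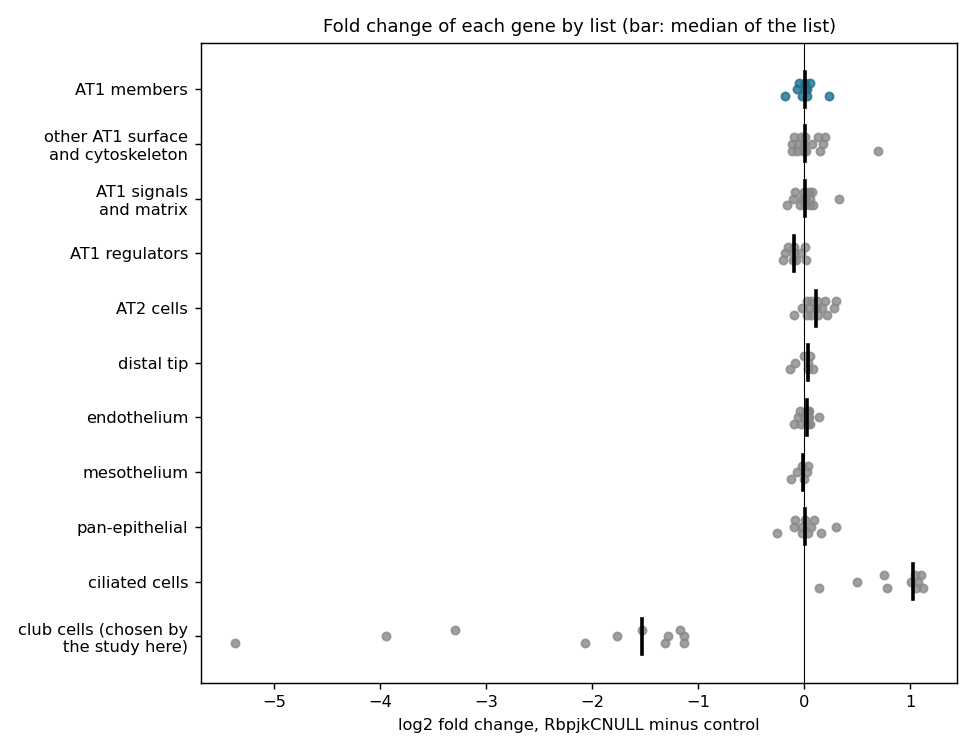
Log2 fold change, RbpjkCNULL minus control (horizontal axis), of each measured gene (points) by list, with the median of each list as a bar. The AT1 genes (blue) lie between -0.18 and 0.23, the medians of the lists from the other AT1 genes down to the pan-epithelial genes lie between -0.09 and 0.11, and the ciliated and club (CC) lists stand apart at 1.03 and -1.53. Not all lists are drawn. Among the others, with 0 genes called in each, the medians were -0.23 for smooth muscle, 0.16 for erythroid cells, -0.09 for immune cells and -0.03 for fibroblasts.

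Sex was not balanced between the groups, and the AT1 genes were compared with it in the fit. With the Xist level of each lung as a covariate, all 10 log2 fold changes were negative, with a median of -0.08, where the median of all genes was -0.10. They ran from -0.28 (Pdpn) to -0.00081 (Ager), and 0 of 10 passed at an adjusted or unadjusted p under 0.05. The intervals widened, to -0.67 at the low end (Pdpn) and 0.35 at the high end (Aqp5) without Rtkn2, and to -0.87 to 0.36 for Rtkn2. Under this covariate 0 of all genes passed the adjusted test and 1418 had an unadjusted p under 0.05. In the 4 lungs with low Xist alone, a setting added after seeing the data, 9 of the 10 were negative, as were 77.3% of all genes, and 0 passed. The median was -0.06, beside -0.09 for all genes. The 3 RbpjkCNULL lungs did not overlap with control replicate 3 for 3 of the 10 (Pdpn, Hopx and Akap5, all lower), against 55.7% of all genes. That setting rests on a single control lung, and the fit with the Xist covariate leans on the same lung. In neither can sex and the differences between individual control lungs be told apart.

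**Figure D5:**
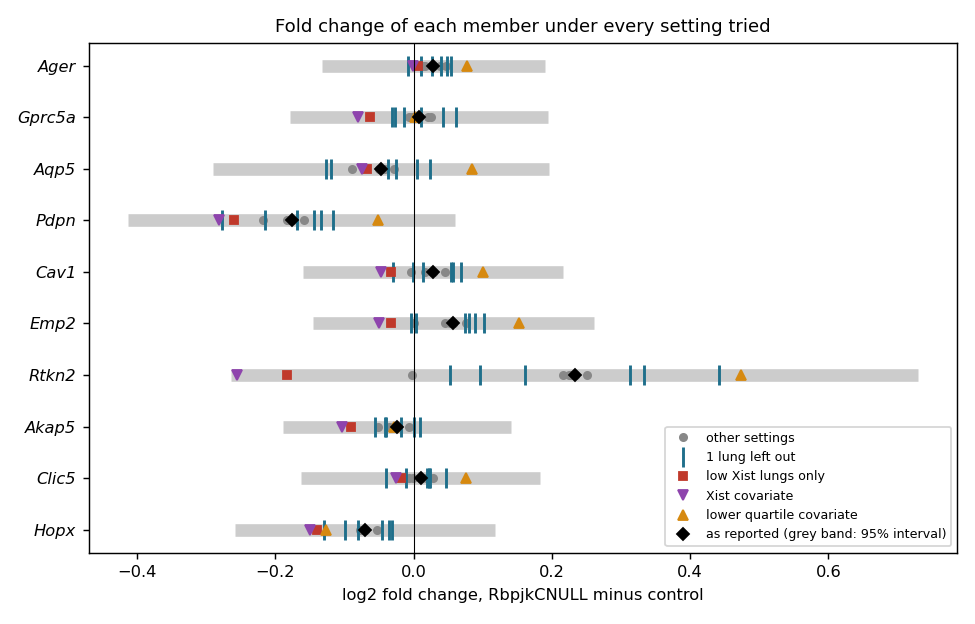
Log2 fold change, RbpjkCNULL minus control (horizontal axis), of each AT1 gene as reported (black diamond, with its 95% interval as a grey band) and under the 20 alternatives tried, with those that leave out 1 lung, use the low Xist lungs only or add a covariate marked. All marks lie inside the band of their gene, with Rtkn2 ranging from -0.25 to 0.47.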

How the data were processed

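Total RNA of each whole lung was amplified, labelled with biotin and hybridised to 1 Affymetrix Mouse Gene 1.0 ST array. The deposited values are log2 expression values, which the authors made with RMA (background subtraction, alignment by quantiles, and a median polish over probes) in the affy package under R 2.12.0, with probes summarised by Entrez Gene. They were used as they stand, in 21225 genes, of which 20239 had a symbol in the platform table and 986 did not. RMA draws low values together and aligns the arrays, so a change shared by most genes would not be seen.

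The groups were set against each other with limma 3.58.1 in R 4.3.3 (lmFit and eBayes, Benjamini-Hochberg over all genes, threshold 0.05), whose intervals are at 95%. The test was tried on simulated data. The members and the lists of other genes were chosen with earlier results of these data known, so no list was tested and each is described by counts and medians. All members were named, and of each other list up to 4 genes that passed or otherwise up to 3 in list order. Genes named after their values were seen are marked as such. Each result was recomputed with the t-test of the methods, an intensity trend, a robust prior or weights per array, with arrays centred on the median, scaled by quantiles or by cyclic loess, without genes under the 25th percentile or under the median of the gene means, with the replicate block, without each lung, with Xist or the lower quartile as a covariate, with folds from arithmetic means and, added after seeing the data, in the lungs with low Xist only. Promoter sequences are from RefSeq, GRCm38.p6. All 6 value columns belong to the 6 lungs.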

Additional observations from a re-analysis of the deposited data

How the results depend on the processing

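No member passed the adjusted test under any of the 20 alternatives. Of 200 member values, 169 kept their sign and 31 changed it, 13 of these when a lung was left out, and 4 reached an unadjusted p under 0.05 (Pdpn and Rtkn2). The number of genes called was 8 with the methods' t-test (1769 at an unadjusted p under 0.05), 0 with Xist as a covariate (1418), 0 in the low Xist lungs (1833) and 139 to 236 with a lung left out (139 without RbpjkCNULL replicate 2, 148 without RbpjkCNULL replicate 3). With the replicate block it was 304, with 0 members, and the block changed no member's call. The labels do not say whether same-numbered lungs pair. Correlations of deviations were 0.49, 0.31 and -0.09 for lungs of the same number and -0.53 to 0.41 for the others, which cannot settle it. The median of the members was -0.077 with Xist as a covariate and -0.036 to 0.035 with a lung left out. Members without overlap numbered 0 to 1 with a lung left out, where 19.5% to 30.8% of all genes did not overlap, and 3 in the low Xist lungs, where 55.7% did not. Log2 fold changes that changed sign were, with Xist as a covariate, -0.00081 (Ager), -0.048 (Cav1), -0.026 (Clic5), -0.050 (Emp2), -0.080 (Gprc5a) and -0.25 (Rtkn2). In the low Xist lungs they were -0.033 (Cav1), -0.018 (Clic5), -0.032 (Emp2), -0.063 (Gprc5a) and -0.18 (Rtkn2). Array weights gave -0.0042 (Cav1), -0.0072 (Clic5) and -0.0029 (Rtkn2), cyclic loess -0.00063 (Clic5) and -0.0021 (Gprc5a), quantile scaling -0.0071 (Gprc5a), and the lower quartile as a covariate 0.085 (Aqp5). With a lung left out the ranges were -0.0076 to 0.054 (Ager), -0.055 to 0.0091 (Akap5), -0.13 to 0.023 (Aqp5), -0.029 to 0.069 (Cav1), -0.041 to 0.047 (Clic5), -0.0040 to 0.10 (Emp2), -0.031 to 0.062 (Gprc5a), -0.13 to -0.032 (Hopx), -0.28 to -0.12 (Pdpn) and 0.053 to 0.44 (Rtkn2). The cause of these changes was not tested. Clic6 passed in 15 of 19 fits and Ezr in 8 of 19. The number of arrays and the imbalance of sex limit every value.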
